A study of Mus musculus with 9 samples.

Results

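NF-kB is a family of dimeric transcription factors, and 10 of its genes are described here in sorted mouse liver endothelium: the 5 Rel family subunits (Nfkb1, Nfkb2, Rela, Relb and Rel), the inhibitors Nfkbia and Nfkbie, the ubiquitin editor Tnfaip3 and the ubiquitin ligases Birc2 and Birc3. They were chosen by name, as subunits, inhibitors and feedback genes, from the 52636 genes of the count table, and all 10 were abundant enough to be tested. RNA came from 5 libraries whose labels name a double knockout of Erg and Fli1, and from 4 control libraries labelled wild type. Per the labels' protocols, both groups received tamoxifen to induce deletion and were taken 7 days later, and liver cells were sorted as live, CD45-negative, CD31-positive cells that had bound a VE-cadherin antibody injected into the mouse. The proteins ERG and FLI1 belong to the ETS family and act in endothelium and blood. Which promoter drives the recombination, how old the mice were and how many contributed to a library are not stated in the labels.

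In resting cells, IkB proteins hold NF-kB dimers in the cytoplasm. In the canonical pathway, signals from cytokine and Toll-like receptors activate the IkB kinase complex, IkB is degraded, and dimers such as those of RelA and the p50 product of Nfkb1 enter the nucleus and switch on inflammatory genes, among them the genes of their own inhibitors. In the noncanonical pathway, the kinase encoded by Map3k14 leads to processing of the Nfkb2 product, which pairs with RelB, and the ligases encoded by Birc2 and Birc3 keep that kinase low. In endothelium, NF-kB is known for inducing the adhesion molecules that capture leukocytes.

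Values are CPM, counts scaled to a common library size after TMM normalization, and a fold change is that of the libraries labelled knockout over the controls estimated by edgeR (quasi-likelihood), with adjusted p-values by Benjamini and Hochberg's method from the whole table of 14583 tested genes, called below 0.05. The libraries held between 26791371 and 36401682 counts, and each member had between 490 and 9342 counts in every library, so counting error was small beside the spread between libraries. Erg averaged 142.9 ± 10.9 CPM in the libraries labelled knockout and 311.6 ± 17.8 CPM in controls (SD, n = 5 and 4), whereas Fli1 averaged 147.4 ± 22.5 CPM and 100.1 ± 8.01 CPM. Because gene-level counts of Fli1 were higher under the knockout label, the 5 libraries are called by their label throughout, and every direction is relative to it. Replicates 2 and 3 of these libraries stood apart from replicates 1, 4 and 5 on the second principal component, so results are also given without them. That choice came from these same data, so p-values of the fits without them are descriptive. The endothelial markers were abundant in both groups, with summed levels of 15979 to 23331 CPM in the libraries labelled knockout and 24778 to 27254 CPM in controls. Of these 11 markers, 3 were called lower (Clec4g, Tie1 and Tek) and 0 higher. Platelet and megakaryocyte markers summed to 63.4 to 136 CPM in the libraries labelled knockout and 22.6 to 36.5 CPM in controls, with Pf4 and Itga2b the most abundant, and 4 of the 5 were called higher. Leukocyte markers summed to 14.2 to 28.4 CPM and 6.74 to 15.6 CPM, hepatocyte markers to 17.3 to 199.4 CPM and 155.3 to 356.8 CPM, and macrophage and Kupffer markers to 56.8 to 428.2 CPM and 80.0 to 293.9 CPM, in each case with the libraries labelled knockout given first. Of the 7 leukocyte markers tested, 2 were called higher, S100a8 and S100a9, and of the 8 hepatocyte markers 1 was called lower. For comparison, 14.5% of all genes tested were called higher and 14.8% lower. No marker in any list was at 0 in every library, and their part in the results was not tested. In RNA of sorted pools, fewer cells of a type and less RNA per cell cannot be told apart.

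The promoters of 4 members are printed because they belong to the pair of called members with a sequence at hand, Rel and Birc3, and to the classic feedback inhibitors Nfkbia and Tnfaip3. Each is the window from 250 bases before to 50 bases after a RefSeq start site (GRCm38.p6). Capitals mark matches, on either strand, to the kB consensus to which Rel family dimers bind or to the ETS-type letters CCGGAA and GGAAGT.
Rel promoter, chr11:23770920-23771219, minus strand: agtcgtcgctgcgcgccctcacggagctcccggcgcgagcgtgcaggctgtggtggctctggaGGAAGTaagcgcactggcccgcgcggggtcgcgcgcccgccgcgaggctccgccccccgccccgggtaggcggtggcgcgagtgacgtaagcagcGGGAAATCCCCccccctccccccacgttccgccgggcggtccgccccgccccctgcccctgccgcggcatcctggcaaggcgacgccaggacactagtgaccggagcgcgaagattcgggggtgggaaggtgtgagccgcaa
Birc3 promoter, chr9:7873121-7873420, minus strand: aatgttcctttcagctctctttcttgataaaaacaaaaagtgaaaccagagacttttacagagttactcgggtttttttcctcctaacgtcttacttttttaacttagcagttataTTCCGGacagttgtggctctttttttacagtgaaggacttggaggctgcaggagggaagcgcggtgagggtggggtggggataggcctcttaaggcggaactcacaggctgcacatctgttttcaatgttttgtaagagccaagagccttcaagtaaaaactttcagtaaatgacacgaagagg
Nfkbia promoter, chr12:55492598-55492897, minus strand: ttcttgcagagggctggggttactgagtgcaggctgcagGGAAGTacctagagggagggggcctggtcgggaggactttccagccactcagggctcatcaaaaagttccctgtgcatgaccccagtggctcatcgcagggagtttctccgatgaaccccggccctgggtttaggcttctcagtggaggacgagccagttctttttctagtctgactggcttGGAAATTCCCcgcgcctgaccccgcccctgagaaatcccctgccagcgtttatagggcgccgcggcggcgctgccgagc
Tnfaip3 promoter, chr10:19015361-19015660, minus strand: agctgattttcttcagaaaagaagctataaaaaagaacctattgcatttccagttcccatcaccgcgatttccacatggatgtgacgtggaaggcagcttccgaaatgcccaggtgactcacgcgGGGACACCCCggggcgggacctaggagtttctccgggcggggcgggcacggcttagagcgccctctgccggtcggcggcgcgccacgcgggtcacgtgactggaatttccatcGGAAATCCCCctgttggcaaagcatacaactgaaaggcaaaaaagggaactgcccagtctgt
In the Rel window the kB consensus matched GGGAAATCCC from position -92 and overlapping stretches on the other strand, and GGAAGT lay at -187. The Nfkbia window held GGGAATTTCC on the other strand at -29 and GGAAGT at -211. The Tnfaip3 window held the kB consensus at -125 and at -12, and the Birc3 window held no kB match but CCGGAA on the other strand at -134. A window was at hand for 8 of the 10 members, and 5 of these held the kB consensus, 3 held CCGGAA and 2 held GGAAGT. Among all 32851 promoter windows of the same length, 8.46% held the kB consensus, 14.9% CCGGAA and 23.8% GGAAGT. A match is a run of letters and does not show that a protein binds there.

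Of the 10 members, Nfkb1 and Rel were lower and Birc3 was higher in the libraries labelled knockout, and 7 did not pass the threshold. Across all genes tested, 14.8% were called lower and 14.5% higher, so the share of members called was near the 29.3% of all genes called in either direction. The same 3 members were those whose groups did not overlap, 1 above and 2 below the controls, against 13.2% of all genes tested above and 13.8% below. Without replicates 2 and 3 labelled knockout, 2 members were higher and 3 lower, where 14.5% of all genes tested were called higher and 14.9% lower. With all libraries, the median log2 fold change was -0.09 for the members and 0.01 for all genes. Summed over the 10 genes, the level was 917.8 to 1132 CPM in the libraries labelled knockout and 1034 to 1093 CPM in controls. Replicates 1, 3, 4 and 5 labelled knockout, at 917.8, 990.9, 976.1 and 961.3 CPM, were below every control. Replicate 2, at 1132 CPM, was above every control.

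**Figure D1:**
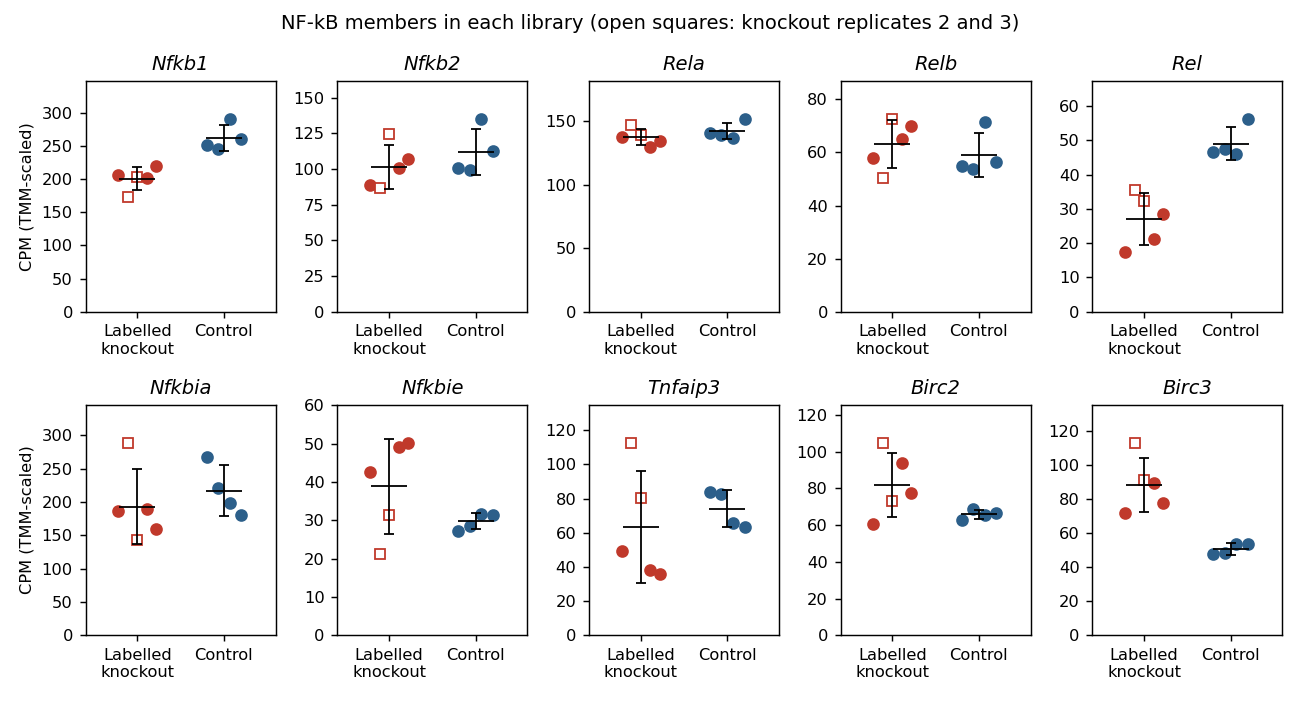
CPM of each of the 10 members (y axes, linear, starting at 0) in 5 libraries labelled knockout and 4 control libraries; points are libraries, horizontal lines means and bars SD. The groups are apart for Nfkb1, Rel and Birc3, and among the libraries labelled knockout replicates 2 and 3 (open squares) are the lowest for Nfkbie and the highest for Tnfaip3.

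Among the subunits, Nfkb1 encodes the precursor p105 and the DNA-binding subunit p50. Nfkb1 (ENSMUSG00000028163, GRCm38 chromosome 3, 135584655 to 135691547, minus strand) stood at 205.8, 173.1, 204.1, 201.2 and 220.6 CPM in the libraries labelled knockout and at 252.2, 246.0, 290.3 and 261.4 CPM in controls. Every library labelled knockout was below every control, and replicate 2 was the lowest. The means were 201.0 ± 17.3 and 262.5 ± 19.6 CPM (SD, n = 5 and 4), 1.31-fold lower (log2 fold change -0.39 ± 0.09, SE, edgeR adjusted p = 0.00985).

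Rel encodes c-Rel, a transactivating subunit best known from lymphocytes. Rel (ENSMUSG00000020275, chromosome 11, 23736847 to 23770970, minus strand) stood at 17.3, 35.5, 32.2, 21.1 and 28.6 CPM in the libraries labelled knockout and at 46.6, 47.6, 45.9 and 56.1 CPM in controls. The groups did not overlap, and replicates 1 and 4 of the libraries labelled knockout were lowest. Rel fell 1.82-fold (means 26.9 ± 7.59 and 49.0 ± 4.73 CPM, log2 fold change -0.86 ± 0.19, SE, edgeR adjusted p = 0.00904), and 2.18-fold without replicates 2 and 3 (edgeR adjusted p = 0.00121). The leukocyte marker Ptprc, which encodes CD45, lay at 4.07 to 12.2 CPM in the libraries labelled knockout and 4.82 to 6.34 CPM in controls. The lymphocyte markers Cd3e, Cd3g and Nkg7 were too low to be tested. The part of leukocytes in the level of Rel was not tested.

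Rela, whose product p65 is the main transactivating subunit of the canonical pathway, did not pass the threshold. Rela (ENSMUSG00000024927, chromosome 19, 5637483 to 5648130, plus strand) stood at 137.8, 147.3, 139.1, 129.3 and 134.0 CPM in the libraries labelled knockout and at 140.7, 139.4, 136.6 and 151.3 CPM in controls. The groups overlapped, with 2 libraries labelled knockout below every control and 1 control above every library labelled knockout. The 95% interval of the log2 fold change was -0.19 to 0.10 (edgeR adjusted p = 0.631). Neither gene of the noncanonical pair passed the threshold. Nfkb2 (ENSMUSG00000025225, chromosome 19, 46304320 to 46312385, plus strand), which encodes the precursor p100 and the subunit p52, had log2 fold change -0.14 with a 95% interval of -0.43 to 0.15. Its levels were 86.7 to 124.7 CPM in the libraries labelled knockout and 99.6 to 134.7 CPM in controls. Relb (ENSMUSG00000002983, chromosome 7, 19606217 to 19629438, minus strand), which encodes the partner of p52, had log2 fold change 0.10 with an interval of -0.18 to 0.37 and levels of 50.5 to 72.4 CPM and 53.8 to 71.4 CPM. Exons of Nfkb2 share 299 bases with Psd on the opposite strand, and Psd had at most 25 counts in any library, so that gene could add few reads to the Nfkb2 count. Of the 50-base stretches in Nfkb2 transcripts, however, 707 of 4740 (14.9%) also occurred in another annotated gene, the largest share of any member, 457 of them in AC114539.1, so the Nfkb2 count is uncertain.

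Per length, taken as CPM per kilobase of merged exons, Rela was the most abundant subunit in both groups and Rel the least. This order depends on the lengths used, which merge all annotated transcripts: 12061 bases for Nfkb1 and 3072 for Rela. In CPM, Nfkb1 was above Rela, with means of 201.0 against 137.5 CPM in the libraries labelled knockout and 262.5 against 142.0 CPM in controls. Which transcripts were present was not tested, so the order of Nfkb1 among the subunits is uncertain. Rela made up 43.4 ± 3.48% of the per-kilobase sum of the 5 subunits in the libraries labelled knockout and 40.6 ± 2.85% in controls (SD, n = 5 and 4). Rel made up 2.35 to 4.81% in the libraries labelled knockout and 5.03 to 6.39% in controls. Nfkb1 made up 14.5 to 17.3% and 18.4 to 19.7%, so for both genes the shares of the groups did not overlap either. The order of the others was Nfkb2 at 22.1 ± 3.35 CPM per kilobase in the libraries labelled knockout and 24.4 ± 3.57 in controls, Nfkb1 at 16.7 ± 1.43 and 21.8 ± 1.62, and Relb at 16.3 ± 2.31 and 15.2 ± 2.12. The levels of Nfkb1 and Relb were within 1 SD of each other in the libraries labelled knockout. In controls, Nfkb2 was above Nfkb1 in all 4 libraries. The difference of their control means was more than the SD of Nfkb1 and less than that of Nfkb2. The sum of all 5 was 103.4 ± 6.03 and 114.2 ± 7.03 CPM per kilobase.

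**Figure D2:**
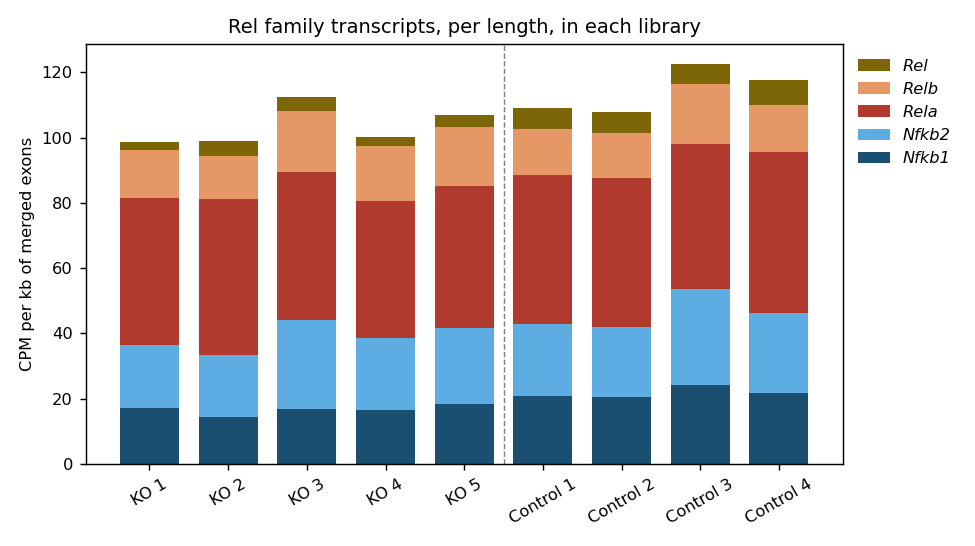
Stacked levels of the 5 Rel family transcripts in CPM per kilobase of merged exons (y axis, linear, from 0) in each library, with the libraries labelled knockout left of the dashed line and controls right of it. Rela is the widest band in every library, and the Rel band, at the top, is 3.61 ± 1.02 high on average in the libraries labelled knockout and 6.57 ± 0.633 in controls.

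The feedback inhibitors did not pass the threshold with all libraries, and their levels varied more between libraries labelled knockout than between controls. Nfkbia encodes IkB-alpha, which is resynthesised after NF-kB enters the nucleus. Nfkbia (ENSMUSG00000021025, chromosome 12, 55489410 to 55492647, minus strand) stood at 185.9, 288.3, 142.5, 189.0 and 160.3 CPM in the libraries labelled knockout and at 268.2, 221.2, 198.2 and 180.4 CPM in controls. The highest and the lowest of the 9 libraries were both labelled knockout, replicates 2 and 3, and the 95% interval of the log2 fold change was -0.62 to 0.28. Per kilobase, Nfkbia was the most abundant of the 10 members, at 120.0 ± 35.1 CPM per kilobase in the libraries labelled knockout and 134.8 ± 23.6 in controls.

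Tnfaip3 encodes A20, which edits ubiquitin chains on signalling proteins and dampens the pathway. Tnfaip3 (ENSMUSG00000019850, chromosome 10, 19000910 to 19015657, minus strand) stood at 49.2, 112.4, 80.5, 38.1 and 35.9 CPM in the libraries labelled knockout and at 84.1, 82.7, 65.6 and 63.6 CPM in controls. Replicate 2 exceeded every control, while replicates 1, 4 and 5 were below every control. With all libraries the log2 fold change was -0.23 ± 0.33 (SE, edgeR adjusted p = 0.640), with a 95% interval of -0.96 to 0.50. Without replicates 2 and 3 it was -0.84 ± 0.15 (SE, edgeR adjusted p = 0.00293), 1.79-fold lower, with 41.1 ± 7.09 CPM in the 3 remaining libraries labelled knockout. Leaving out replicate 2 alone moved it to -0.53 (edgeR adjusted p = 0.150). Replicates 2 and 3 held the highest Tnfaip3 values of their label, so leaving both out narrows the spread, and the p-value of that fit is descriptive.

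Nfkbie encodes IkB-epsilon, a slower feedback inhibitor, and showed the opposite order within the libraries labelled knockout. Nfkbie (ENSMUSG00000023947, chromosome 17, 45555703 to 45563169, plus strand) stood at 42.5, 21.3, 31.4, 49.1 and 50.1 CPM in the libraries labelled knockout and at 27.3, 28.6, 31.6 and 31.5 CPM in controls. Replicates 1, 4 and 5 were above every control, replicate 2 was below every control and replicate 3 lay among them. The log2 fold change was 0.38 ± 0.23 (SE, edgeR adjusted p = 0.233), with a 95% interval of -0.12 to 0.89. Without replicates 2 and 3 Nfkbie rose 1.59-fold (log2 0.67 ± 0.09, SE, edgeR adjusted p = 7.95e-04), and without replicate 2 alone the call was also made (log2 0.54, edgeR adjusted p = 0.0203). Replicates 2 and 3 held the lowest Nfkbie values of their label, so these p-values are descriptive too.

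A list of 15 early response and dissociation genes, such as Fos, Jun and Egr1, which cells induce within minutes of handling, also differed between these libraries. Its summed level was 10214, 23292, 12257, 4499 and 7352 CPM in replicates 1 to 5 of the libraries labelled knockout and 20642, 16090, 9113 and 17866 CPM in replicates 1 to 4 of the controls. Among the libraries labelled knockout, replicate 2 was highest for this sum, for Tnfaip3 and for Nfkbia, and lowest for Nfkbie. Without replicates 2 and 3, 5 genes of the list were called lower in edgeR, where 14.9% of all genes tested were. With all libraries, 0 genes of the list passed the threshold in edgeR (Nr4a1 had the smallest p, edgeR adjusted p = 0.0540). At an unadjusted p under 0.05 there were 2 genes, Nr4a1 and Hspa1a, and DESeq2 called 1 gene higher. Hspa1a has a near-identical copy, Hspa1b, so its count is uncertain. The endothelial markers also split these libraries, though not all in the same direction. They summed to 16195 and 15979 CPM in replicates 2 and 3 labelled knockout and to 22092, 22240 and 23331 CPM in replicates 1, 4 and 5. Stab2 stood at 3130 and 3160 CPM, against 4644, 5226 and 6073 CPM. Kdr, Eng, Tek and Cdh5 were likewise lowest in replicates 2 and 3. Lyve1 went the other way, at 937.3 and 259.7 CPM against 14.5, 29.5 and 28.1 CPM. So did Tie1, Egfl7 and Pecam1, the last at 1585 and 1525 CPM against 1307, 1444 and 1181 CPM. Emcn and Clec4g did neither. Apart from Stab2 and Eng, these markers were named after their values were seen. The part of either sum in the values of the inhibitors was not tested.

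**Figure D3:**
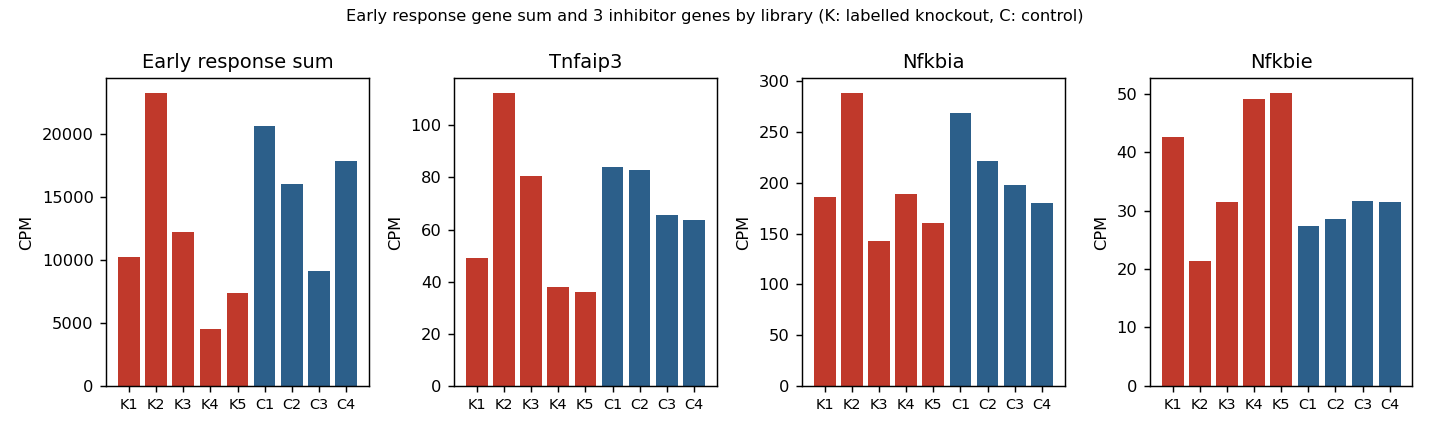
Bars give the summed CPM of 15 early response genes and the CPM of Tnfaip3, Nfkbia and Nfkbie (y axes, linear, from 0) in each library, with the 5 libraries labelled knockout (K, red) left of the 4 controls (C, blue). Replicate 2 labelled knockout has the highest bar in the first 3 panels, at 23292, 112.4 and 288.3 CPM, and the lowest in the last, at 21.3 CPM.

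Birc2 and Birc3 encode cIAP1 and cIAP2, ubiquitin ligases that act in TNF receptor complexes, and Birc3 is itself a target of NF-kB. The genes are neighbours on chromosome 9 and lie on the minus strand. Birc3 (ENSMUSG00000032000, 7848699 to 7873186) stood at 71.7, 112.6, 91.0, 89.0 and 77.3 CPM in the libraries labelled knockout and at 47.5, 48.1, 53.4 and 53.4 CPM in controls. All 5 libraries labelled knockout were above all controls. Birc3 rose 1.75-fold (means 88.3 ± 15.8 and 50.6 ± 3.23 CPM, log2 0.80 ± 0.13, SE, edgeR adjusted p = 0.00137), and 1.58-fold without replicates 2 and 3 (edgeR adjusted p = 9.02e-04).

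Birc2 (ENSMUSG00000057367, 7818227 to 7837064) stood at 60.6, 104.6, 73.0, 93.6 and 77.7 CPM in the libraries labelled knockout and at 63.0, 68.9, 65.4 and 66.6 CPM in controls. Of the libraries labelled knockout, 4 were above every control and replicate 1 was below them. The log2 fold change was 0.31 ± 0.14 (SE), with a 95% interval of -0.0047 to 0.63 and edgeR adjusted p = 0.128, and the call was made without replicate 1 (log2 0.41, edgeR adjusted p = 0.0313). Of the 50-base stretches in Birc2 transcripts, 65 of 4579 also occurred in Birc3 transcripts, so few reads could be exchanged between them. Of the Birc3 stretches, 384 of 5079 (7.56%) occurred in another annotated gene, 213 of them in Gm7019. That share was the largest of any member after Nfkb2, so part of the Birc3 count is uncertain.

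A ratio of counts within a library needs no scaling between libraries, and 4 such ratios were compared by exact two-sided permutation tests over 126 arrangements, with adjustment over the 4. The ratio of Birc3 to Birc2 was 1.18, 1.08, 1.25, 0.950 and 0.995 in the libraries labelled knockout and 0.755, 0.698, 0.816 and 0.802 in controls. The groups did not overlap, and the difference of the mean log2 ratio was 0.50 (exact permutation p = 0.0159, the smallest that these numbers of libraries allow, adjusted p = 0.0635). The ratio of Nfkb2 to Nfkb1 was 0.432 to 0.611 in the libraries labelled knockout and 0.398 to 0.464 in controls, a difference of 0.24 (exact permutation p = 0.0317, adjusted p = 0.0635). Neither ratio passed after adjustment. The ratio of Relb to Rela differed by 0.14 and that of Nfkbia to Rela by -0.15, both with an adjusted p of 0.540 in the exact permutation test.

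**Figure D4:**
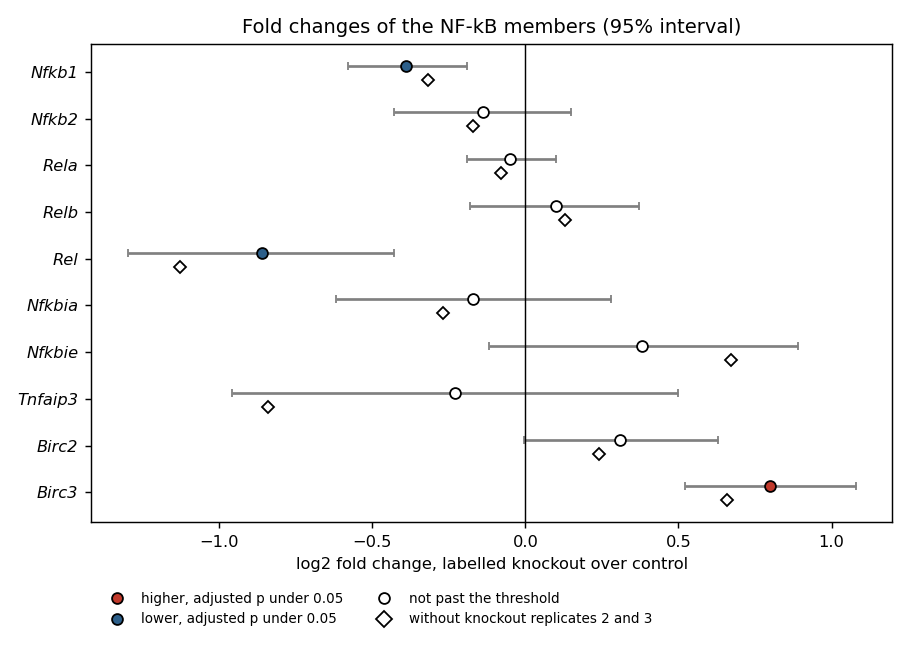
Log2 fold change of each member, libraries labelled knockout over controls (x axis), with all 9 libraries (circles, with 95% intervals) and without replicates 2 and 3 labelled knockout (diamonds). The intervals of Nfkb1, Rel and Birc3 lie away from 0, and the diamonds of Tnfaip3 and Nfkbie lie at -0.84 and 0.67.

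The genes of the IkB kinase complex, related kinases and their adaptors were examined as a list of 11, the kinase list. Of these, 6 were higher and 0 lower, where 14.5% of all genes tested were called higher and 14.8% lower. The median log2 fold change was 0.22 against 0.01 over all genes tested. Of the 6, 4 had groups that did not overlap, and 13.2% of all genes tested lay above the controls in this way. Tab1, an adaptor of the kinase TAK1, stood at 18.2, 19.5, 24.7, 18.8 and 14.3 CPM in the libraries labelled knockout and at 11.7, 10.5, 8.35 and 7.36 CPM in controls, and rose 2.01-fold (log2 1.01 ± 0.18, SE, edgeR adjusted p = 0.00283). Map3k7, which encodes TAK1, rose 1.48-fold to 194.0 ± 35.5 CPM, against 131.5 ± 7.70 CPM in controls, and the adaptor gene Tab2 rose 1.26-fold. The 3 subunits of the IkB kinase complex, Chuk, Ikbkb and Ikbkg, rose 1.25-fold, 1.27-fold and 1.15-fold (edgeR adjusted p = 0.0235, 0.0449 and 0.0408). The last pair were named after their values were seen. Chuk lost its call in 6 of the 19 alternatives, with adjusted p up to 0.0783, and for Ikbkb and Ikbkg the alternatives were followed only through the count of the list. Map3k14, the noncanonical kinase, had log2 fold change -0.20 ± 0.11 (SE, edgeR adjusted p = 0.193). The count of 6 fell to 3 without replicates 2 and 3 labelled knockout, without control replicate 1, 2 or 3, or with a sex term.

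Of 14 ubiquitin adaptors and editors, 2 were higher, 3 lower and 9 not past the threshold (median log2 fold change -0.08). Among all genes tested, 14.5% were higher and 14.8% lower. Xiap, an inhibitor of caspases related to Birc2 and Birc3, stood at 165.5, 188.8, 169.7, 177.3 and 167.3 CPM in the libraries labelled knockout and at 389.1, 379.9, 417.6 and 455.2 CPM in controls. It fell 2.36-fold (log2 -1.24 ± 0.08, SE, edgeR adjusted p = 1.86e-05), the opposite direction to Birc3. Rnf31, the catalytic subunit of the linear ubiquitin ligase, fell 1.68-fold to 68.2 ± 5.60 CPM, against 114.8 ± 14.6 CPM in controls, and shares 123 exon bases with Irf9, so its count is uncertain. Cyld, a deubiquitinase that opposes the pathway, was 1.29-fold lower (edgeR adjusted p = 0.0338). That call was lost in 8 of the 19 alternatives, among them leaving out any 1 control. Tax1bp1, an A20 partner, and the ligase gene Itch rose 1.23-fold each.

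Of the 4 other IkB genes, Nfkbib, Nfkbid, Nfkbiz and Bcl3, 0 passed the threshold in edgeR, whereas 1 did at an unadjusted p under 0.05 and 1 in DESeq2, in both cases Nfkbid. Nfkbid, which encodes a nuclear IkB, averaged 10.3 ± 3.71 CPM in the libraries labelled knockout and 17.8 ± 6.08 CPM in controls (edgeR adjusted p = 0.0807). Nfkbiz, another nuclear IkB gene and named after its values were seen, stood at 84.9, 327.4, 288.4, 38.5 and 52.2 CPM in the libraries labelled knockout and at 224.1, 169.6, 47.0 and 188.9 CPM in controls, so that replicates 2 and 3 were again the high ones.

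Of 20 receptors and ligands upstream of NF-kB, 19 were tested, and 3 were higher and 2 lower, where 14.5% and 14.8% of all genes tested were. The lipopolysaccharide receptor gene Tlr4 rose 1.54-fold, with 64.2 to 76.2 CPM in the libraries labelled knockout and 43.3 to 52.8 CPM in controls (edgeR adjusted p = 5.46e-04). The other higher genes were the interleukin receptor gene Il1r1, 1.37-fold, and Cd40, 1.74-fold and named after its values were seen. Il1r1 lost its call in 8 of the 19 alternatives. The double-stranded RNA receptor gene Tlr3 fell 1.41-fold (edgeR adjusted p = 0.0221), and this call was lost in 4 of the 19 alternatives. Its exons share 381 bases with the antisense gene Gm45542. The transcript of the cytokine Tnf stood at 1.69, 1.73, 0.520, 0.368 and 0.902 CPM in the libraries labelled knockout and at 19.0, 13.6, 6.15 and 4.84 CPM in controls. Every library labelled knockout was below every control for it, and it was 10.4-fold lower (edgeR adjusted p = 0.00198).

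Of 22 genes that NF-kB is known to induce, 21 were tested, and 5 were higher, 5 lower and 11 not past the threshold, with a median log2 fold change of 0.11. The shares over all genes tested were 14.5% higher and 14.8% lower. The 4 lower genes with the smallest p were Vcam1 and Icam1, which encode adhesion molecules for leukocytes, Cxcl16 and Selp. Of other adhesion and chemokine genes in the list, Ccl2 and Cxcl1 were higher, and the E-selectin gene Sele, named after its values were seen, did not pass the threshold, with log2 fold change -0.18 ± 0.60 (SE, edgeR adjusted p = 0.850). Vcam1 stood at 29.6 to 91.2 CPM in the libraries labelled knockout and 211.7 to 280.0 CPM in controls, Icam1 at 98.3 to 139.6 CPM and 199.9 to 344.6 CPM, the chemokine gene Cxcl16 at 56.2 to 127.4 CPM and 238.0 to 280.8 CPM, and the P-selectin gene Selp at 18.5 ± 5.93 and 46.0 ± 6.37 CPM (SD). For all 4 the groups did not overlap. Exons of Cxcl16 share 552 bases with Zmynd15 on the opposite strand, and exons of Icam1, Selp and Vcam1 share up to 511, 438 and 61 bases with antisense or noncoding genes. The strand setting is unknown, so reads of these partners cannot be told apart. The fifth lower gene was Irf1, a transcription factor gene, which, like the 5 higher genes, was named after its values were seen. The higher genes were the cytokine and chemokine genes Il6, Ccl2 and Cxcl1 and the survival and adaptor genes Bcl2l1 and Traf1. Ccl2 averaged 12.5 ± 3.44 CPM in the libraries labelled knockout and 6.51 ± 1.81 CPM in controls, and Traf1, whose product joins Birc2 and Birc3 in receptor complexes, averaged 22.9 ± 4.93 and 13.8 ± 2.55 CPM (1.66-fold, edgeR adjusted p = 0.0149). Il6 averaged 2.18 ± 0.788 and 0.209 ± 0.280 CPM, and 1 control held no count of it. Cxcl1 stood at 27.8, 64.2, 34.2, 7.36 and 15.4 CPM in the libraries labelled knockout and at 7.49, 11.7, 6.11 and 8.27 CPM in controls. The groups overlapped for Cxcl1, Traf1 and Bcl2l1, but not for Il6 and Ccl2.

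**Figure D5:**
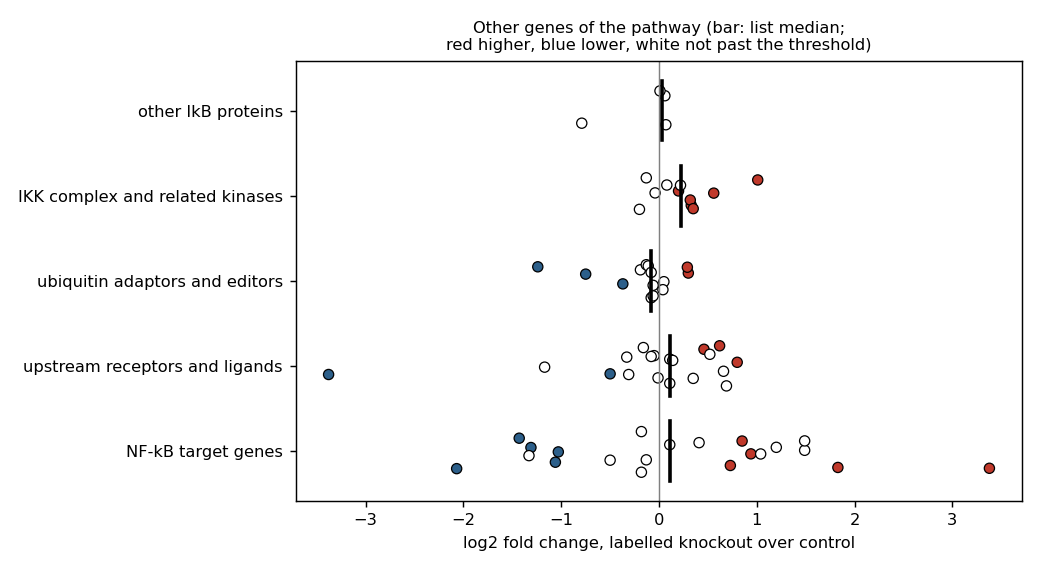
Log2 fold change, libraries labelled knockout over controls (x axis), of every tested gene in 5 lists of other pathway genes; black bars are list medians, red points were called higher, blue points lower and white points neither. The list of the IKK complex and related kinases, which includes adaptors, leans to the right with 6 red points. The target genes hold 5 red and 5 blue points.

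The pathway genes whose pattern over the 9 libraries lay nearest to each called member were found among 69 tested candidates, by the root mean square difference of log2 levels centred on the control mean. For Nfkb1 they were Cyld (0.13) and Map3k14 (0.18), for Rel they were Xiap (0.37) and Rnf31 (0.39), and for Birc3 they were Tlr4 (0.24) and Tab1 (0.32).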

How the data were processed

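Raw counts per Ensembl gene were deposited by the authors as 1 table with 52636 rows and 1 column for each of 9 libraries of polyadenylated RNA, per the labels made with an unstranded or a stranded TruSeq kit. Per the submitters' processing notes, the tools were STAR 2.7.6a and FastQC 0.11.5 with GRCm38 as build. The counter, annotation and strand setting were not given in the sources used here. Groups and replicate numbers came from sample titles and columns from sample descriptions, and 0 columns were left unused. Nothing says that each library came from its own animal, so p-values measure the spread between these libraries, which may be partly technical. Library pairs within a group differed beyond sampling noise, with a chi-square of 20.3 to 182 per degree of freedom.

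Symbols, coordinates and merged exon lengths came from GENCODE vM21 (GRCm38), and 52489 identifiers had a symbol. Promoters came from RefSeq (GRCm38.p6). Genes were filtered with filterByExpr (minimum count 10, total 15), scaled by TMM and fitted in R 4.3.3 by edgeR 4.0.16 (robust glmQLFit, glmQLFTest). The SE is the log2 fold change over the square root of F, and 95% intervals use the fit's degrees of freedom. On counts of 14375 genes simulated with these library sizes, 68 of 100 simulated 2-fold changes were found. So were 93 of 100 at 4-fold, and 11 unchanged genes were called. Simulated levels were averaged over all 9 libraries, and a far smaller share of genes was changed than the 29.3% called in the data. These rates may therefore differ from those of the real contrast. Alternatives were DESeq2 1.42.0, limma-voom (limma 3.58.1), 3 scalings, 2 filters, a replicate block, a sex term (from Xist and Ddx3y counts) and left-out libraries. By those counts, 3 libraries labelled knockout were female and 2 male, and 1 control was female and 3 were male. The centred levels used to find similar patterns had 0.5 CPM added.

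The members and lists were chosen with earlier results of these data known. Named were the 10 members, the targeted genes, up to 4 called genes with the smallest p of each list (the smallest p where none was called), the most abundant markers and the genes nearest in pattern.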

Additional observations from a re-analysis of the deposited data

Results flagged for a closer look

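Among 28 sets of values (10 members and 4 ratios, each in both groups), 3 held a library far from the rest of its group, where chance flags about 1 in 20. Relb reached 71.4 CPM in control replicate 3, while the other controls lay between 53.8 and 56.5 CPM. The ratio of Relb to Rela was 0.523 in the same library, against 0.374 to 0.390 in the other controls. Without that library the log2 fold change of Relb was 0.20, against 0.10 with all libraries, and it did not pass the threshold in either fit (edgeR adjusted p = 0.274 and 0.602). By Xist and Ddx3y counts, it was the only female control. Among the libraries labelled knockout, Relb stood at 72.4, 65.0 and 70.0 CPM in the 3 female ones and at 58.0 and 50.5 CPM in the 2 male ones. In the fit with a sex term, the log2 fold change of Relb was -0.03 (edgeR adjusted p = 0.784). The effect of sex itself on Relb was not tested. Rel reached 56.1 CPM in control replicate 4, while the other controls lay between 45.9 and 47.6 CPM. Without that library Rel remained lower, at a log2 fold change of -0.80 (edgeR adjusted p = 0.0275).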

How the results depend on the processing

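The calls of Nfkb1 (log2 fold change -0.44 to -0.32, adjusted p 3.73e-04 to 0.0342), Rel (-1.13 to -0.74, adjusted p 3.25e-04 to 0.0362) and Birc3 (0.66 to 0.87, adjusted p 1.22e-07 to 0.0109) held in all 19 alternatives. The count of members higher was 1 with all libraries and 2 without replicates 2 and 3 labelled knockout together, and lay between 1 and 2 when 1 library was left out, the second gene being Nfkbie or, without replicate 1, Birc2. The count of members lower was 2, and 3 without replicates 2 and 3, the added gene being Tnfaip3. Rela turned to 0.02 with library totals alone and Relb to -0.03 with a sex term. With the sex term Nfkb2 moved from -0.14 to -0.26 (edgeR adjusted p = 0.0534). The kinase list held 6 higher genes and between 2 and 6 in the alternatives. The receptor list held between 1 and 3 higher and between 1 and 3 lower, the target list between 3 and 6 higher, and the ubiquitin list between 0 and 2 higher. The 4 ratios kept their signs, with the Birc3 to Birc2 difference between 0.44 and 0.55. Equal replicate numbers did not pair the libraries (correlations of deviations 0.291, -0.0308, -0.0183 and -0.333). With the replicate block, 1296 genes were called higher and 1375 lower, against 2110 and 2161, the 3 member calls were kept, and the kinase list held 2. Within the block, 0 ubiquitin adaptors were higher, and the calls of Fli1, Map3k7, Chuk, Tax1bp1, Itch and Il1r1 were lost (adjusted p 0.0639, 0.0626, 0.0623, 0.0637, 0.0730 and 0.0924). Depth limited low genes such as Il6 and Tnf more than any member.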

Other observations

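Early response genes differed among libraries of the same label by more than most members did. Nr4a1, an orphan nuclear receptor gene, stood at 198.4, 634.3, 307.0, 77.8 and 167.2 CPM in the libraries labelled knockout and at 112.8, 116.9, 30.4 and 67.1 CPM in controls, and Myc at 205.2, 426.2, 293.1, 96.3 and 124.7 CPM and at 141.4, 138.3, 78.5 and 172.9 CPM. For both, as for Nfkbiz and Tnfaip3, replicate 2 labelled knockout was highest and replicate 3 second among the libraries of that label. Egr1 ranged from 103.0 to 2217 CPM in the libraries labelled knockout and from 567.3 to 1756 CPM in controls. These genes were named after their values were seen, apart from Nr4a1 and Tnfaip3.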
